A study of Mus musculus with 35 samples.

Results

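The genes described here are 46 genes of DNA replication and mitosis, chosen by name from the 44853 genes listed in the induction table. They fell into 6 groups by role: 11 genes of origin licensing, 9 of the replication fork and DNA synthesis, 3 of nucleotide supply, 4 regulators of the step from G1 to S phase, 7 of mitotic entry, and 12 of chromosome segregation and its checkpoint. All 46 passed the filter on low values and were tested, and 15 of them were also listed in the siRNA table. Values are TPM, which are scaled by transcript length and by library, so levels can be compared between genes. In bulk libraries, fewer cells of a type and less RNA per cell cannot be told apart.

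Mouse KH2 embryonic stem (ES) cells (C57BL/6 x 129/Sv) with a GATA6 cassette switched on by doxycycline (Dox) were collected untreated (0 h) and after 16, 24, 48, 72, 96 and 168 h in 1 µg/mL Dox, with 3 libraries per time. XEN cells, which are stem cells of the extra-embryonic endoderm and stand for primitive endoderm (PrE) here, were the untreated wild type X10 line on a CD1 background (2 libraries) and were grown without LIF, unlike the ES cells. In a further experiment the inducible cells, there a single selected clone, received control siRNA (siCTL) or siRNA against Oct4 (siOct4) together with 1 µg/mL Dox for 48 h, with 6 libraries each. All groups shared a serum medium and growth on mitomycin C-inactivated mouse embryonic fibroblasts, which were adsorbed away for 20 minutes before lysis.

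Before S phase, the origin recognition complex with Cdc6 and Cdt1 loads the Mcm2 to Mcm7 helicase onto origins, a step that geminin (Gmnn) holds back. In S phase, Cdc45 and the GINS complex turn this helicase into a moving fork, where the Pcna clamp and DNA polymerases copy the strands. Cyclins A and B with Cdk1, Plk1 and the Aurora kinases then drive entry into mitosis, and the spindle checkpoint holds back anaphase until each chromosome is attached. ES cells are known for a short G1 phase and for high levels of many of these genes. E2F factors are known to act through promoters of replication genes, whereas many mitosis genes carry a cell cycle homology region (CHR) read by the DREAM and B-Myb complexes, often near CCAAT boxes bound by NF-Y.

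Promoter sequences are shown so that the letters known from E2F and CHR elements can be set beside the responses of the genes. RefSeq promoters (GRCm38.p6, 250 bases before to 50 bases after the start site) were available for 38 of the 46 genes. The letters TTTNGCGC or TTNGCGCC, which overlap each other and are called E2F-like here, were searched on both strands and stood in the promoters of 6 of 9 licensing genes, 2 of 6 fork genes, none of 3 nucleotide genes, 2 of 4 G1/S regulators, 2 of 5 mitotic entry genes and 1 of 11 segregation genes, against 3.35% of 27025 genes with a promoter. The letters TTTGAA or TTCGAA, called CHR-like, stood in 2 of 9, 2 of 6, 0 of 3, 1 of 4, 4 of 5 and 8 of 11, against 21.7% of all genes. CCAAT stood in 31 of the 38 promoters, against 41.1% of all genes, and TATAAA in 1 of 38, against 15.7%. A match of letters is a description of the window and not a bound site.

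The E2F-like windows of 4 licensing genes, of Pola1 and of E2f2 are written 5′ to 3′ on the gene's strand, with the matched letters in capitals and up to 10 bases on each side, to show how closely the licensing genes share these letters.
Mcm3, chr1:20820263-20820284, minus strand: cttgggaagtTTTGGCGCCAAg
Mcm5, chr8:75109346-75109377, plus strand: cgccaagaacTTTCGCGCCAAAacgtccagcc
Mcm6, chr1:128359794-128359825, minus strand: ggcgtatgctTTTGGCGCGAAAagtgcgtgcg
Mcm7, chr5:138171849-138171877, minus strand: ggtgacgacgTTTCGCGCCaatttcggtt
Pola1, chrX:93632276-93632304, minus strand: gtcatcacagGGCGCCAAAtgcactcccg
E2f2, chr4:136172303-136172323, plus strand: cggcatatagTTTGGCGCTAA

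The CHR-like windows of 3 mitotic entry and 4 segregation genes are written in the same way. Their letters are TTTGAA or, where the match lay on the other strand, TTCAAA, which stood in 4 of 5 mitotic entry and 7 of 11 segregation promoters.
Ccnb2, chr9:70421535-70421560, minus strand: cggcgcggtaTTTGAAtcgcggaccg
Plk1, chr7:122159455-122159480, plus strand: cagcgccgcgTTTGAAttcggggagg
Aurka, chr2:172370523-172370548, minus strand: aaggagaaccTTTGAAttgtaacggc
Bub1b, chr2:118598241-118598260, plus strand: agacgttaaaTTTGAAactt
Cdc20, chr4:118437346-118437371, minus strand: acagttgggtTTTGAAggagccaatg
Cenpa, chr5:30666892-30666917, plus strand: cgggtgatttTTTGAActgctggcga
Ttk, chr9:83834686-83834711, plus strand: gcggggaaatTTCAAAcgtgtttccg

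Of the called genes with a motif, those with the largest change at 168 h among the licensing, fork and segregation genes were Mcm2, Pola1 and Cenpe. Their whole promoters are shown with every searched motif in capitals. Mcm2 held a CHR-like match and a CCAAT box but no E2F-like match, Pola1 held an E2F-like match and a CCAAT box, and Cenpe held a CCAAT box alone.
Mcm2, chr6:88898731-88899030, minus strand: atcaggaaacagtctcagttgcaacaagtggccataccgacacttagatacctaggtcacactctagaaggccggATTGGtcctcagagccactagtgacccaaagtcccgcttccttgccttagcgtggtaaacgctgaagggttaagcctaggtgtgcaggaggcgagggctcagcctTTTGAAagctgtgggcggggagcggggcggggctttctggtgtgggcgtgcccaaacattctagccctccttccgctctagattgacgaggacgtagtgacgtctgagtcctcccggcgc
Pola1, chrX:93632106-93632405, minus strand: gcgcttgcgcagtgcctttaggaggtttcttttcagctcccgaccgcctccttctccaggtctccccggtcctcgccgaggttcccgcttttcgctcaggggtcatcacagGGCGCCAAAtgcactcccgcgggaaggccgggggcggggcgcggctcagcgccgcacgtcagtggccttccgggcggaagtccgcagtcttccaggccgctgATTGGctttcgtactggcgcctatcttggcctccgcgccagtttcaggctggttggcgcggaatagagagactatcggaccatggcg
Cenpe, chr3:135212313-135212612, plus strand: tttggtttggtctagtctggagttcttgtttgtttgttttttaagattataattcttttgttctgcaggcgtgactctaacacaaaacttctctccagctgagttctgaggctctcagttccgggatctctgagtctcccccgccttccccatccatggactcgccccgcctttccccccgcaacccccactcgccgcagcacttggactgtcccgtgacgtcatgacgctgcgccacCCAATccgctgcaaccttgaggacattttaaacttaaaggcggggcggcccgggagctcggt

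Labels and libraries were checked before the genes were compared. Summed over 10 PrE markers, TPM ranged from 30.8 to 43.1 at 0 h, from 6309 to 6722 at 168 h and from 5221 to 5243 in XEN cells, and summed over 10 pluripotency markers from 9644 to 9884, from 1801 to 2595 and from 17.4 to 21.1. Pou5f1 ranged from 782 to 1194 TPM with siCTL and from 282 to 387 TPM with siOct4 (log2 difference -1.52, two-sided exact permutation test of siOct4 against siCTL, p = 0.00216, the smallest it can give). The 12 fibroblast markers, all listed, summed to 42.8 to 128 TPM at 0 h, 56.6 to 164 TPM at 72 h, 86.4 to 124 TPM at 96 h, 132 to 295 TPM at 168 h and 105 to 113 TPM in XEN cells, with replicate 3 the highest in 6 of the 7 ES cell groups. Lum went from a mean of 0.375 TPM at 0 h to 4.24 TPM at 168 h, Dcn from 0.511 to 3.26 TPM and Col3a1 from 5.45 to 46.8 TPM, and the part of fibroblast RNA in the results below was not tested. Depth is unknown from TPM, so the spread between libraries is the error given.

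The set split by role during GATA6 induction. Genes of origin licensing and of the fork mostly fell, whereas of the 3 nucleotide supply genes 0 passed as lower at 48 h and 2 at 168 h. Of the 19 genes of mitotic entry and chromosome segregation, 11 passed as higher at 48 h. At 168 h 6 of these 19 passed as higher and 8 as lower, or 2 and 11 after median-of-ratios rescaling of the libraries. A list of 71 other mitosis genes did not share the rise at 48 h, with 12 passing as higher and 21 as lower. Tests were made with limma on log2(TPM + 1) over 15057 genes, with p-values adjusted by Benjamini-Hochberg. A gene passed at an adjusted p-value under 0.05, and was called when its log2 fold change was also above 1 in size. At 168 h, 27 of the 46 genes passed as lower (58.7%, against 33.9% of all genes tested) and 11 as higher (23.9%, against 41.1%), and 8 did not pass. By the stricter rule 10 genes, Mcm2, Mcm3, Mcm6, Mcm10, Gins1, Pcna, Pola1, Pole, E2f2 and Bub1b, were called lower and 2, Cdk2 and Cenpe, higher. Among all genes tested, 16.5% were called lower and 22.6% higher.

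**Figure D1:**
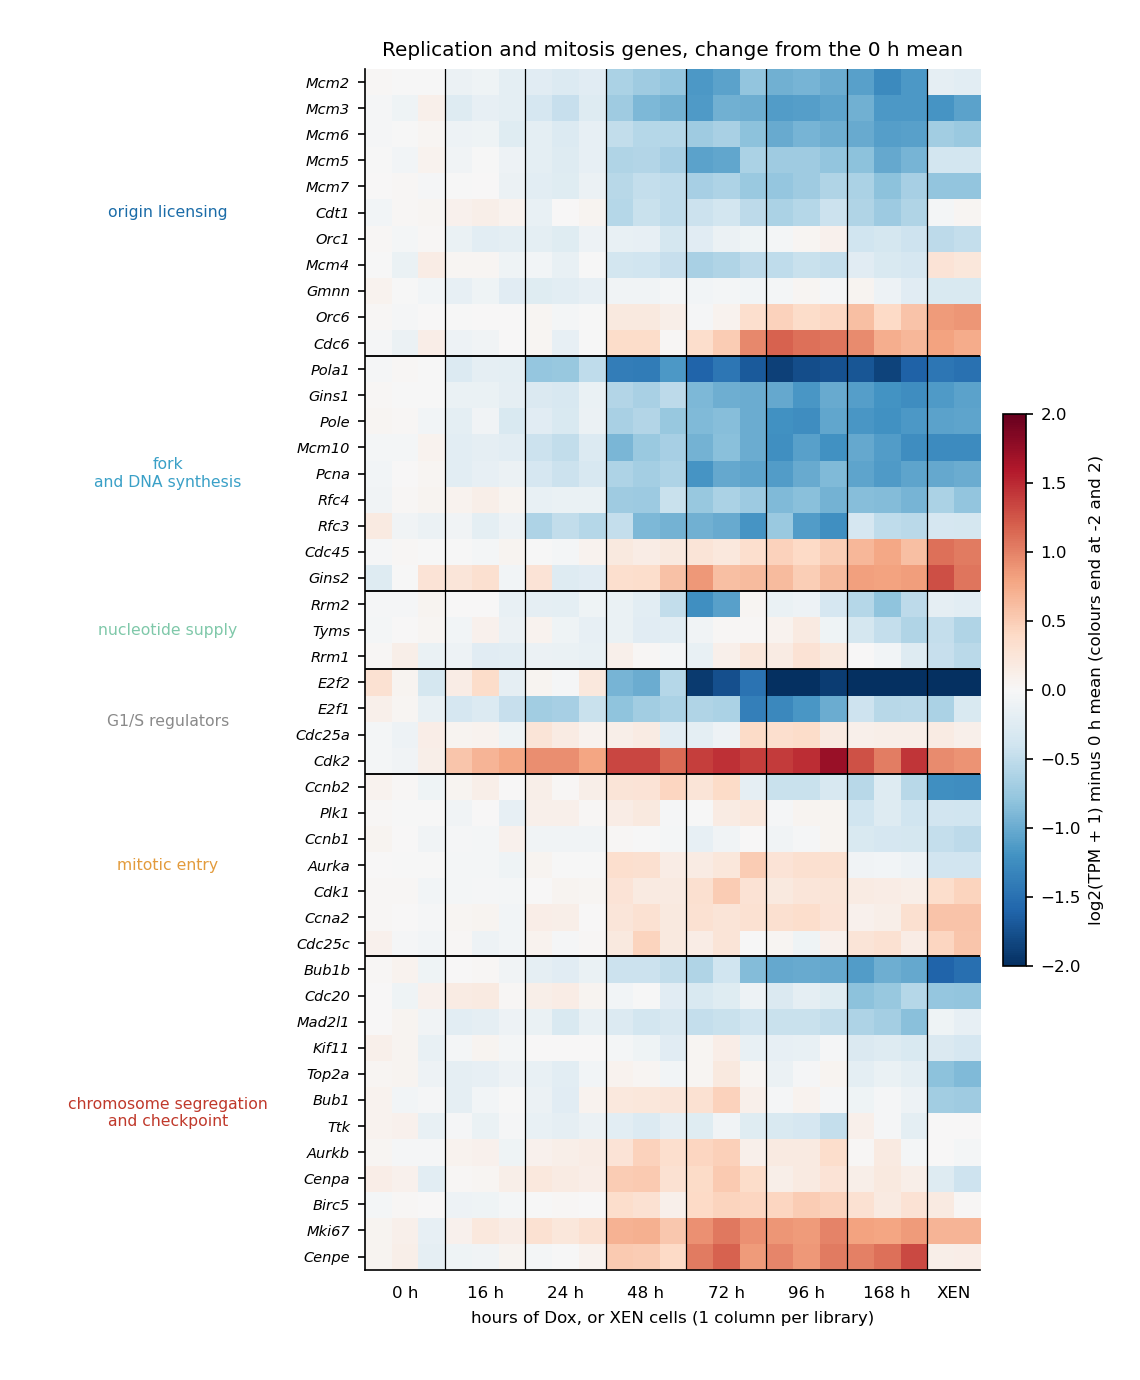
Change of the 46 genes in the 23 libraries of the induction series, as log2(TPM + 1) minus the mean of the 0 h libraries (blue lower, red higher, colours ending at -2 and 2). Each row is a gene, grouped by role and ordered by its change at 168 h, and each column is a library. Most rows of the licensing and fork groups turn blue from 48 h, with Cdc6, Orc6, Cdc45 and Gins2 red, and Cdk2 turns red from 16 h.

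At 16 h Cdk2 was the 1 gene of 46 to pass (2.17%, against 7.91% higher and 5.03% lower of all genes), although 14 had an unadjusted p under 0.05 and 5 passed as lower when libraries were rescaled. By 24 h, 14 of 46 passed as lower (30.4%, against 11.8% of all genes) and 2 as higher (4.35%, against 16.7%), and 12 of those 14 belonged to the replication groups. At 48 h, 20 passed as lower (43.5%, against 26.1%) and 14 as higher (30.4%, against 27.7%). Of the 23 replication genes, 15 then passed as lower and 2 as higher, and of the 19 mitosis genes, 3 passed as lower and 11 as higher.

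By the stricter rule, no gene of the set was called at 16 or 24 h by limma, where 14 and 19 had an unadjusted p under 0.05. Of all genes tested, 1.97% were called higher and 0.804% lower after 16 h, and 3.24% and 2.44% after 24 h. At 48 h 1 gene was called higher and 1 lower (background 9.14% and 7.26%), at 72 h 2 and 6 (14.7% and 11.5%), and at 96 h 2 and 9 (15.4% and 14.1%). Between 96 and 168 h no gene was called by limma, where 23 had an unadjusted p under 0.05 (background of calls 5.23% higher and 2.44% lower). Without the fold minimum 6 of the 46 passed as higher (against 26.5% of all genes) and 12 as lower (26.1%, against 16.2%), or 3 and 25 under rescaling. Between 16 and 168 h, both in Dox, 5 were called lower (Mcm2, Gins1, Pola1, E2f2 and Bub1b) and 1, Cenpe, higher (background 15.6% lower and 20.2% higher).

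The median log2 fold change of each group shows the split. For licensing genes it was -0.50 at 48 h and -0.64 at 168 h, and for fork genes -0.64 and -1.08. Mitotic entry genes had a median of 0.25 at 48 h and -0.08 at 168 h, and segregation genes 0.12 and -0.06. The 3 nucleotide genes stood at -0.19 and -0.48 and the 4 G1/S regulators at -0.35 and -0.20. All genes tested had a median of 0.0 at 48 h and 0.09 at 168 h, which became -0.08 at 168 h when the libraries were rescaled by the median of ratios. The group medians at 168 h then moved to -0.87, -1.31, -0.70, -0.42, -0.31 and -0.28 in the order licensing, fork, nucleotide, G1/S, mitotic entry and segregation. Under that scaling 32 genes passed as lower and 7 as higher. The mild rises of Ccna2 and Cdk1 turned to -0.06 and -0.08 and did not pass, and those of Cdc25c and Birc5, at 0.02 and 0.03, did not pass either.

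**Figure D2:**
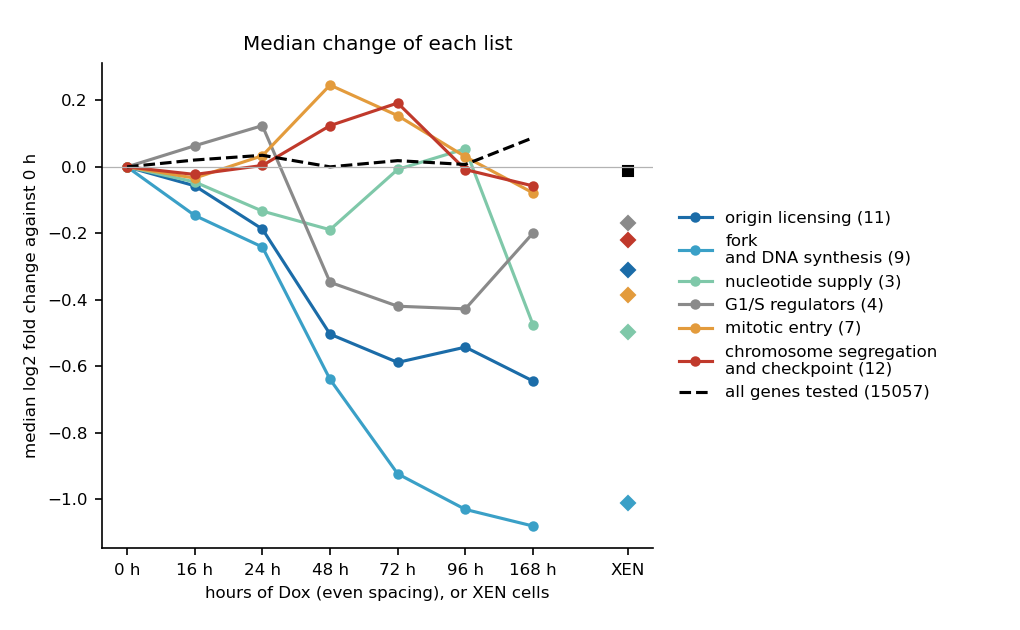
Median log2 fold change against 0 h of each group of genes (coloured lines, number of genes in brackets) and of all 15057 genes tested (dashed), by hours of Dox, with XEN cells at the right. Fork genes reach -1.08 at 168 h, whereas the mitotic entry and segregation groups peak at 0.25 at 48 h and 0.19 at 72 h.

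Origin licensing genes passed as lower in 8 of 11 cases at 168 h and as higher in 2, against 33.9% and 41.1% of all genes tested. Within the helicase itself, mean levels at 0 h lay between 132 TPM for Mcm4 and 268 TPM for Mcm7. Mcm2, a helicase subunit, stood at 196, 191 and 193 TPM at 0 h and at 91, 79.1 and 86.5 TPM at 168 h, with 170.0 and 166 TPM in XEN cells. The 0 h and 168 h libraries of Mcm2 did not overlap and their means differed 2.26-fold (log2 fold change -1.17, SE 0.07, adjusted p = 2.9e-11). Mcm3, another subunit, stood at 237, 228 and 260 TPM at 0 h, at 123, 109 and 108 TPM at 168 h and at 106 and 115 TPM in XEN cells. The 168 h libraries lay below those of 0 h (-1.08, SE 0.08, adjusted p = 1.39e-10) and overlapped those of XEN cells. Without replicate 3, the Mcm3 change at 168 h was -1.0 and fell just short of the fold minimum. Mcm6 was also called (-1.07, SE 0.06), Mcm5 and Mcm7 passed with -0.92 and -0.70, and Mcm4 passed with -0.29, the smallest change of the 6 subunits.

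The loaders did not move as 1 group. Cdc6, the ATPase that recruits the helicase, stood at 35.7, 33.5 and 39.7 TPM at 0 h, at 83.1, 78.7 and 77.2 TPM at 96 h, at 70.7, 60.7 and 57.7 TPM at 168 h and at 63.7 and 61.2 TPM in XEN cells. It rose by 1.12 on the log2 scale at 96 h (SE 0.13, adjusted p = 2.12e-07) and by 0.78 at 168 h (adjusted p = 1.65e-05). All libraries from 96 h on lay above all at 0 h. Cdt1, its partner, fell by 0.64 at 168 h. Orc6, a subunit of the origin recognition complex, stood at 97.2, 94.2 and 96.9 TPM at 0 h, at 147, 127 and 143 TPM at 168 h and at 175 and 178 TPM in XEN cells, a rise of 0.52 at 168 h (SE 0.07, adjusted p = 2.19e-06). Orc1, the ATPase of the same complex, fell by 0.39. Gmnn, the inhibitor of Cdt1, had the smallest change of the group, with 162, 154 and 148 TPM at 0 h and 160.5, 144 and 132 TPM at 168 h (-0.09, SE 0.06, adjusted p = 0.175). The 0 h and 168 h libraries of Gmnn overlapped, and under rescaling its change was -0.32 and passed.

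Of the fork and DNA synthesis genes at 168 h, 7 of 9 passed as lower and 2 as higher, against 33.9% and 41.1% of all genes tested. Pola1, the catalytic subunit of the polymerase that starts each DNA strand, began with 38.95, 40.3 and 39.1 TPM at 0 h and still had 32.4, 34.6 and 34.5 TPM at 16 h. It then dropped to 22.7, 23.02 and 27.5 TPM at 24 h, to 14.5, 14.3 and 17.2 TPM at 48 h and to 11.4, 10.2 and 12.2 TPM at 168 h. XEN cells held 13.9 and 13.3 TPM. In mm10 with GENCODE M21, Pola1 spans chrX:93304767-93632155 on the minus strand. From 16 h no library overlapped those of 0 h, and the means at 0 and 168 h differed 3.5-fold (log2 fold change -1.72, SE 0.09, adjusted p = 2.09e-12). The fall was already -0.68 at 24 h (adjusted p = 1.35e-05) and -1.31 at 48 h, when Pola1 was the 1 gene of the set called lower.

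Pcna, the sliding clamp, had the highest mean of the set at 0 h, with 403, 422 and 429 TPM. It held 272, 260 and 272 TPM at 48 h and 200.5, 190.1 and 201 TPM at 168 h, with 204 and 208 TPM in XEN cells (-1.08 at 168 h, SE 0.06, adjusted p = 4.16e-12). The libraries of 0 and 168 h lay far apart. Pseudogenes of Pcna were listed with up to 67.2 TPM, and reads may be split between them and the gene. Pole, the leading strand polymerase, Mcm10, a fork assembly factor, and Rfc4, a clamp loader subunit, changed by -1.17, -1.13 and -0.88 at 168 h.

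GINS subunits moved in opposite directions, although the complex holds its subunits in equal numbers. Gins1 stood at 69.7, 68.8 and 68.3 TPM at 0 h, at 31.4, 29.4 and 28.5 TPM at 168 h and at 30.9 and 32.3 TPM in XEN cells (-1.18 at 168 h, SE 0.06, adjusted p = 2.39e-12). Gins2 stood at 30.5, 36.5 and 44.7 TPM at 0 h, at 65.6, 64.9 and 66.3 TPM at 168 h and at 91.2 and 78.3 TPM in XEN cells (0.82 at 168 h, SE 0.14, adjusted p = 3.89e-05). Neither gene had libraries that overlapped between 0 and 168 h. Cdc45, the helicase partner of GINS, stood at 25.6, 26.2 and 25.9 TPM at 0 h, at 41.4, 45.1 and 40.0 TPM at 168 h and at 57.0 and 54.0 TPM in XEN cells, and rose by 0.68 at 168 h (SE 0.06, adjusted p = 4.28e-09). The rises of Gins2 and Cdc45 held under rescaling, at 0.59 and 0.46.

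Rfc3, a small subunit of the clamp loader, had the smallest change of the fork genes at 168 h and dipped before that. It stood at 60.4, 50.3 and 48.8 TPM at 0 h, at 26.6, 25.9 and 22.7 TPM at 72 h, at 41.8, 37.1 and 36.3 TPM at 168 h and at 41.5 and 41.1 TPM in XEN cells. The change from 0 h was -1.05 at 72 h (SE 0.13, adjusted p = 5.6e-07) and -0.46 at 168 h (adjusted p = 0.00324), and the step from 96 to 168 h was a rise of 0.57 (SE 0.13, adjusted p = 0.0013). The 72 h libraries lay below both the 0 h and the 168 h libraries.

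**Figure D3:**
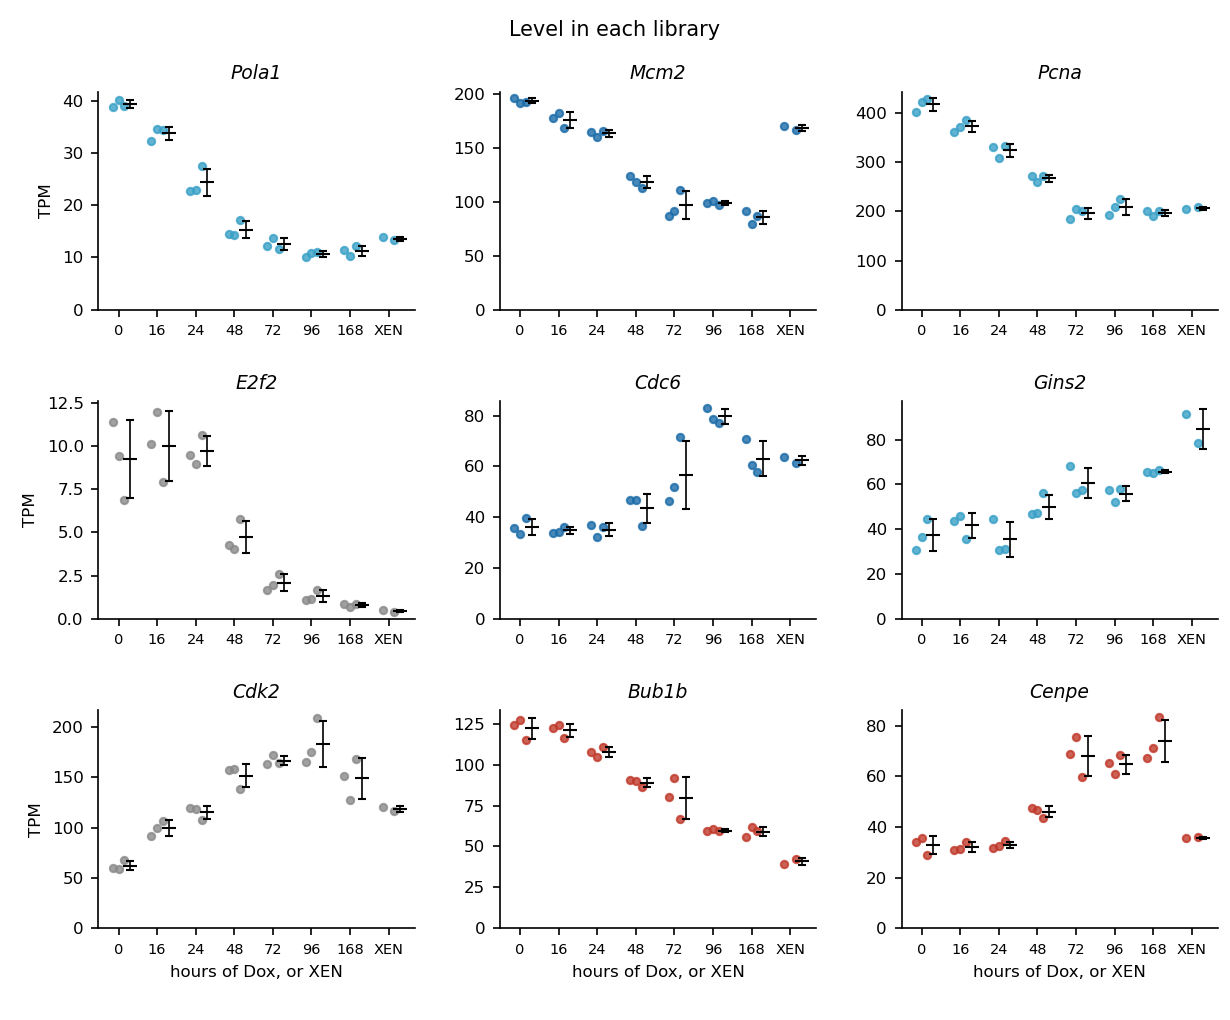
TPM of 9 genes in each library (points), with the mean and SD of each group (black bars), by hours of Dox and in XEN cells; all vertical axes start at 0. Pola1, Mcm2, Pcna, E2f2 and Bub1b run down, Cdc6, Gins2, Cdk2 and Cenpe run up, and in XEN cells the means of Mcm2 and Cenpe are 168 and 35.7 TPM, against 193 and 32.9 TPM at 0 h.

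Of the nucleotide supply genes, 2 of 3 passed as lower at 168 h, against 33.9% of all genes tested, although 3 genes are too few for a share. Tyms, which makes thymidylate, stood at 101, 104 and 106 TPM at 0 h and at 109, 118 and 98.2 TPM at 96 h. It then held 81.6, 74.4 and 68.2 TPM at 168 h and 74.1 and 68.3 TPM in XEN cells, with -0.48 at 168 h (SE 0.08, adjusted p = 2.44e-05) and a step from 96 to 168 h of -0.53 (adjusted p = 3.35e-05). Rrm2, the small subunit of ribonucleotide reductase, stood at 220, 219 and 231 TPM at 0 h and at 149, 127 and 155 TPM at 168 h, with 197 and 193 TPM in XEN cells (-0.63 at 168 h, SE 0.21, adjusted p = 0.0093). At 72 h it held 95.1, 105 and 229 TPM, so that replicate 3 stood apart. Without replicate 3, its change at 72 h went from -0.75 to -1.13 and was called. Mcm5 was then also called at 72 h (-1.02) and Mcm3 was not (-0.988). The same library stood apart for other genes, among them Mcm5 (140 against 102 and 105 TPM), Cdc6 (71.6 against 46.3 and 51.8 TPM), E2f1 (7.76 against 13.9 and 13.6 TPM) and Ccnb2 (119 against 162 and 175 TPM). For others, such as Gmnn, it did not. Means, counts and peak times at 72 h rest partly on this library. Rrm1, the large subunit, stood at 89.8, 96.0 and 80.6 TPM at 0 h, at 88.8, 85.7 and 74.0 TPM at 168 h and at 64.2 and 60.9 TPM in XEN cells. Its 0 h and 168 h libraries overlapped (-0.10, SE 0.09, adjusted p = 0.314), and those of XEN cells lay below all others (-0.50, adjusted p = 0.000183).

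Among the G1/S regulators, E2f2 had the lowest mean of the set at 0 h and the largest fall. This transcription factor of S phase genes stood at 11.4, 9.42 and 6.88 TPM at 0 h and at 9.48, 8.93 and 10.6 TPM at 24 h. It fell to 4.30, 4.07 and 5.77 TPM at 48 h, to 1.66, 1.99 and 2.62 TPM at 72 h and to 0.844, 0.690 and 0.882 TPM at 168 h, with 0.505 and 0.395 TPM in XEN cells. The means at 0 and 168 h differed 11.5-fold, with no overlap (-2.48 on the log2(TPM + 1) scale, which understates changes of low genes, SE 0.17, adjusted p = 1.44e-10). E2f1, a related factor, changed by -0.51 at 168 h (adjusted p = 0.00655), with its lowest mean, 9.30 TPM, at 96 h.

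Cdk2, the kinase that acts with cyclins E and A at the start of S phase, was the 1 G1/S regulator that rose at 168 h. It stood at 60.3, 59.0 and 67.4 TPM at 0 h and at 91.4, 99.8 and 107 TPM at 16 h, so that the groups were already apart at the earliest time (0.67, SE 0.10, adjusted p = 9.19e-05). At 48 h it held 158, 158 and 138 TPM, at 96 h 165, 175 and 209 TPM, at 168 h 151, 128 and 168 TPM, and in XEN cells 120.1 and 116 TPM. The rise was 1.54 at 96 h and 1.24 at 168 h (SE 0.10, adjusted p = 9.72e-10), or 1.01 under rescaling, and the step from 96 to 168 h was -0.30 (adjusted p = 0.0212). Cdc25a, the phosphatase that activates Cdk2, stood at 43.6, 42.1 and 49.7 TPM at 0 h, 48.2, 48.8 and 48.9 TPM at 168 h and 50.5 and 48.6 TPM in XEN cells, with overlapping groups (0.11, SE 0.12, adjusted p = 0.428; -0.12 under rescaling).

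Mitotic entry genes rose mildly at 48 h, when 5 of 7 passed as higher and none as lower, also under rescaling. At 168 h, 3 passed as higher and 3 as lower as deposited, and none as higher and 4 as lower under rescaling. As deposited, 27.7% of all genes tested passed as higher and 26.1% as lower at 48 h, and 41.1% and 33.9% at 168 h. Ccnb2, a B-type cyclin, stood at 141, 136 and 127 TPM at 0 h and at 161, 162 and 181 TPM at 48 h. It held 91.2, 112 and 91.3 TPM at 168 h and 56.9 and 56.0 TPM in XEN cells, a rise of 0.32 at 48 h (adjusted p = 0.0179) that gave way to -0.46 at 168 h (SE 0.11, adjusted p = 0.000808). Plk1, a kinase of mitotic entry and spindle assembly, stood at 112, 109.8 and 109.7 TPM at 0 h, at 83.7, 92.6 and 83.5 TPM at 168 h and at 84.7 and 83.9 TPM in XEN cells (-0.35 at 168 h, SE 0.07, adjusted p = 0.00018). Neither gene overlapped between 0 and 168 h.

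Ccna2, the A-type cyclin, stood at 128, 127 and 125 TPM at 0 h, at 134, 137 and 157 TPM at 168 h and at 189 and 187 TPM in XEN cells. Cdk1, the main mitotic kinase, stood at 356, 354 and 337 TPM at 0 h, at 393, 387 and 378 TPM at 168 h and at 447 and 478 TPM in XEN cells. Cdc25c, a phosphatase that activates Cdk1, stood at 19.6, 18.1 and 17.6 TPM at 0 h, at 22.1, 22.96 and 20.4 TPM at 168 h and at 25.2 and 27.6 TPM in XEN cells. These genes passed at 168 h with 0.17, 0.15 and 0.23 (adjusted p = 0.0179, 0.0212 and 0.0188), values within the shift that rescaling makes, and in XEN cells with 0.57, 0.41 and 0.50, where they also passed under rescaling. Aurka, the Aurora kinase of the spindle poles, was the least changed of the group at 168 h, with 106, 105 and 105 TPM at 0 h and between 98.0 and 102 TPM at 168 h (-0.08, SE 0.07, adjusted p = 0.33), after 133, 132 and 117 TPM at 48 h. It held 80.5 and 80.8 TPM in XEN cells. Ccnb1, another B-type cyclin, changed by -0.33 at 168 h.

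Chromosome segregation and checkpoint genes went both ways at 168 h. Of the 12, 3 passed as higher, 5 as lower and 4 did not pass, or 2 as higher and 7 as lower under rescaling. As deposited, 41.1% of all genes tested passed as higher and 33.9% as lower. Cenpe, a kinesin that carries chromosomes to the spindle centre, stood at 34.2, 35.7 and 28.9 TPM at 0 h, at 47.7, 46.8 and 43.6 TPM at 48 h, at 68.7, 75.7 and 59.8 TPM at 72 h and at 67.3, 71.2 and 83.3 TPM at 168 h. XEN cells held 35.5 and 36.0 TPM, which overlapped the 0 h libraries. The 168 h libraries all lay above those of 0 h (1.14, SE 0.09, adjusted p = 1.66e-09), although the change was 0.97 without replicate 3 and 0.92 under rescaling, below the fold minimum in both. Mki67, the proliferation marker that coats mitotic chromosomes, stood at 55.4, 57.0 and 47.4 TPM at 0 h, at 93.7, 92.5 and 97.0 TPM at 168 h and at 86.1 and 85.9 TPM in XEN cells (0.82 at 168 h, SE 0.07, adjusted p = 3.15e-09). Birc5, or survivin, of the chromosomal passenger complex, stood at 261, 272 and 270.0 TPM at 0 h, at 331, 302 and 327 TPM at 168 h and at 302 and 272 TPM in XEN cells (0.26 at 168 h, adjusted p = 0.000813).

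Bub1b, or BubR1, a core checkpoint protein, fell from 124, 128 and 115 TPM at 0 h to 56.0, 61.8 and 59.5 TPM at 168 h, with 39.5 and 42.1 TPM in XEN cells (-1.04 at 168 h, SE 0.08, adjusted p = 8.94e-10). The groups did not overlap, and XEN cells were the lowest. Without replicate 1 the change at 168 h was -0.99, just short of the fold minimum. Mad2l1, a checkpoint protein, and Cdc20, which it holds in check, changed by -0.71 and -0.72 at 168 h. Bub1, the kinase that recruits BubR1, did not pass (-0.07, adjusted p = 0.442). Ttk, the kinase at the top of the checkpoint, was the least changed, with 37.2, 37.4 and 31.6 TPM at 0 h, 37.7, 34.5 and 30.7 TPM at 168 h and 35.5 and 35.3 TPM in XEN cells (-0.04, SE 0.08, adjusted p = 0.646). Kif11, a spindle motor, and Top2a, which untangles chromosomes, passed with -0.29 and -0.18, whereas Aurkb and Cenpa, with 0.06 and 0.14 as deposited and -0.17 and -0.09 under rescaling, did not pass.

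The time of the highest mean differed between the roles, given here as a description. Among the Dox times including 0 h, 7 of 11 licensing genes and 6 of 9 fork genes had their highest mean at 0 h, against none of 7 mitotic entry and 3 of 12 segregation genes. The highest mean fell at 48 or 72 h for 5 of 7 mitotic entry genes (2 and 3) and 6 of 12 segregation genes (2 and 4), and for no licensing or fork gene. Some of these peaks were near ties. Aurka had means of 130.9 TPM at 72 h, where replicate 3 held 150.9 TPM, and 130.5 TPM at 96 h, and Plk1 had 120.9 TPM at 72 h and 119.6 TPM at 48 h. The counts are of values as deposited, and the share over all genes tested is not given here.

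XEN cells were compared with 0 h and with 168 h to place the end of the series. Against 0 h, 28 of the 46 genes passed as lower (60.9%, against 36.2% of all genes) and 10 as higher (21.7%, against 35.0%), and 9 were called lower and 2 higher (background 18.7% and 18.9%). The 168 h cells share these control libraries. Against 168 h, 12 passed as higher in XEN cells (26.1%, against 17.8%) and 11 as lower (23.9%, against 32.2%). Under rescaling these counts were 17 and 7, with the fork genes going from 2 to 7 higher. By the stricter rule 1 gene, Cenpe, was called, as lower (-1.02, SE 0.11, adjusted p = 2.44e-07; background 9.17% lower and 4.73% higher). Without replicate 3 it was no longer called. The other 45 genes lay within 1 on the log2 scale between cells after 168 h of Dox and XEN cells.

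The helicase was split in this comparison. Mcm2 was higher in XEN cells by 0.97 (SE 0.08, adjusted p = 1.84e-08), Mcm5 by 0.55, Mcm4 by 0.54 and Mcm6 by 0.35, and all 4 passed. For Mcm3 and Mcm7 the difference was -0.04 (SE 0.08) and -0.08 (SE 0.07), 0.10 and 0.06 under rescaling, and did not pass. Mcm4 went below its 0 h level at 168 h (-0.29) and, as deposited, above it in XEN cells (0.25, adjusted p = 0.00524). That rise was the smallest of the 3 licensing genes that passed as higher in XEN cells against 0 h, of which 2 remained under rescaling. Cdt1, Cdc45 and Mad2l1 were also higher in XEN cells, by 0.65, 0.39 and 0.59. Lower in XEN cells were Ccnb2 (-0.78), Top2a (-0.67), Bub1 (-0.63), Bub1b (-0.52) and Cenpa (-0.48). The median of all genes tested was -0.14 in this comparison, and -0.04 under rescaling.

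**Figure D4:**
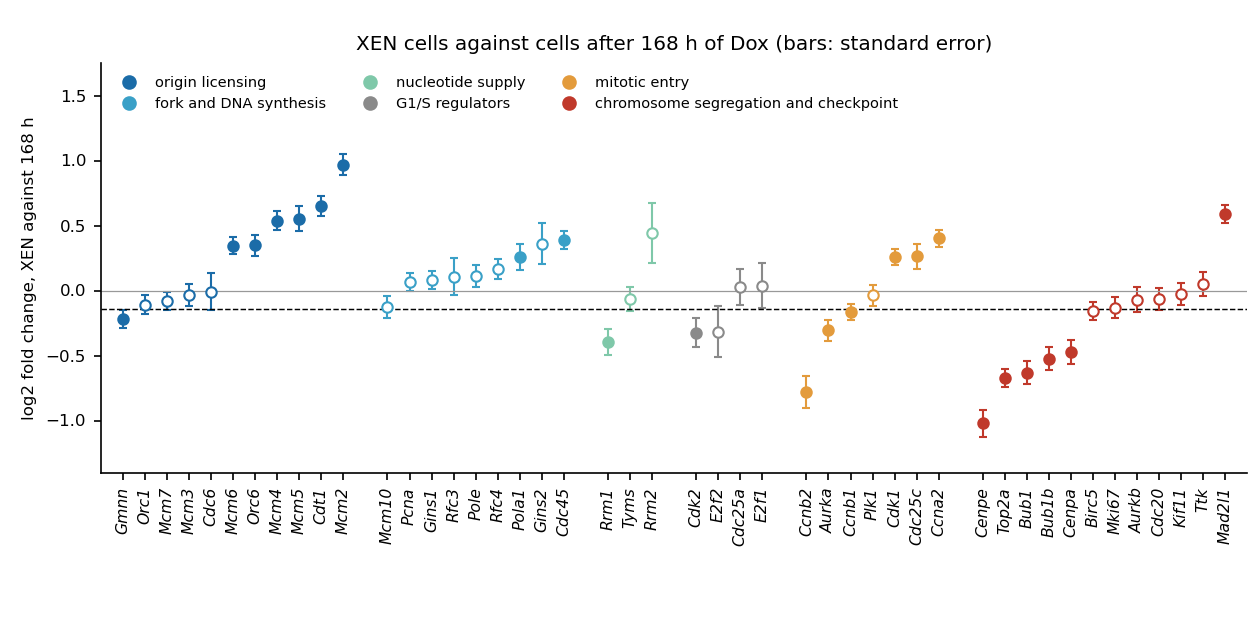
Log2 fold change of each of the 46 genes in XEN cells against cells after 168 h of Dox (points, bars showing the standard error), grouped by role. Filled points passed at an adjusted p-value under 0.05, and the dashed line is the median of all genes tested, -0.14. Mcm2 stands highest at 0.97 and Cenpe lowest at -1.02.

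Other genes of the same pathways were counted from lists. Of 46 other replication genes, 27 passed as lower and 7 as higher at 168 h (median -0.37), or 35 and 5 under rescaling (median -0.59), and 10 were called lower and 1 higher, beside the 16.5% lower and 22.6% higher of all genes tested. Pold2, the accessory subunit of DNA polymerase delta, went from 110 ± 11.8 to 25.7 ± 3.24 TPM (SD, n = 3 and 3; log2 fold change -2.06), and Dna2, a nuclease and helicase, from 33.2 ± 1.56 to 8.95 ± 0.316 TPM (-1.78). Pold4, the smallest subunit of the same polymerase, was the called rise, from 7.58 ± 3.54 to 25.2 ± 3.35 TPM (1.68). Of 71 other mitosis genes, 35 passed as lower and 18 as higher (median -0.16), or 46 and 10 under rescaling (median -0.38), and 5 were called lower and none higher, beside the same shares. At 48 h 21 of these 71 passed as lower and 12 as higher (median -0.06), against 26.1% and 27.7% of all genes tested. Cenpm, of the inner kinetochore, went from 68.1 ± 13.7 to 6.37 ± 0.967 TPM (-3.22) and Ect2, which sets up cytokinesis, from 133 ± 12 to 39.2 ± 4.80 TPM (-1.74).

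Of 23 cell cycle transcription regulators, 12 passed as lower and 7 as higher at 168 h, or 13 and 6 under rescaling. By the stricter rule 7 were called lower and 1 higher. Among all genes tested, 33.9% passed as lower and 41.1% as higher, and 16.5% and 22.6% were called. Ccne1, or cyclin E1, the partner of Cdk2, went from 220.0 ± 4.24 to 41.6 ± 3.29 TPM (-2.38), Mybl2, or B-Myb, from 335 ± 22.5 to 91.7 ± 2.08 TPM (-1.85), and E2f6, a repressive E2F, from 14.4 ± 1.19 to 43.6 ± 3.5 TPM (1.54). All adjusted p-values of these named genes were 9.51e-06 or smaller. Among 7 CDK inhibitors, which block the kinases that drive these steps, 5 were called higher and none lower at 168 h. In XEN cells against 0 h, 6 were called higher and 1 lower (-3.11), against 18.9% and 18.7% of all genes tested.

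The siRNA series asks what Oct4 contributes after 48 h of Dox. Its table lists only GATA6-responsive genes as the authors defined them, so 31 of the set cannot be seen there, among them all of nucleotide supply and mitotic entry. Replicate numbers paired the libraries, so a fit with the replicate as a block is given where it changes a call. None of the 15 listed genes was called by limma at an adjusted p-value under 0.05 and a log2 fold change above 0.5 in size, where 2 had an unadjusted p under 0.05 (background 0.942% higher and 1.72% lower of 6264 genes). With the block, 1, Cdk2, was called lower (background 6.15% lower and 2.43% higher).

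Cdk2 ranged from 96.7 to 180.0 TPM with siCTL (median 152) and from 78.4 to 123 TPM with siOct4 (median 103). As deposited, the groups overlapped, but siOct4 was lower in 6 of 6 pairs, with pair differences from -0.75 to -0.30 on the log2 scale. Median-of-ratios scaling factors of the siRNA libraries ranged from 0.70 (siOct4 replicate 3) to 1.36 (siCTL replicate 4). For siCTL replicate 3, which held the lowest siCTL value of Cdk2, the factor was 0.74. The overlap and the size of the change, close to the fold minimum of 0.5, therefore depend on how libraries are scaled. Rescaled libraries were fitted only without the block, where Cdk2 was not called. The log2 fold change was -0.53, with SE 0.17 and adjusted p = 0.131 without the block and SE 0.10 and adjusted p = 0.0089 with it. Consecutive libraries of a group (1 and 2, 3 and 4, 5 and 6) resembled each other, with correlations of their deviations from the group mean across genes from -0.07 to 0.71 for siCTL and from 0.31 to 0.71 for siOct4, against -0.54 to -0.18 and -0.61 to -0.03 for the other pairs, so the 6 pairs may not be independent. With consecutive libraries averaged, which leaves 3 pairs, Cdk2 was at -0.55 and was not called, with adjusted p = 0.469 without the block and 0.0831 with it. Across the settings without the block its adjusted p lay between 0.0359 and 0.469. Cenpe ranged from 50.7 to 109 TPM with siCTL (median 75.6) and from 40.9 to 73.4 TPM with siOct4 (median 55.2). It was lower in 6 of 6 pairs, by -1.13 to -0.03, and did not pass (-0.42, SE 0.19, adjusted p = 0.332, or 0.103 with the block).

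Replication genes did not pass between the siRNAs. Pcna ranged from 226 to 384 TPM with siCTL (median 323) and from 276 to 367 TPM with siOct4 (median 288), Mcm2 from 66.3 to 130 TPM (median 96.3) and from 68.6 to 131 TPM (median 93.7), and Pola1 from 7.72 to 30.1 TPM (median 25.8) and from 16.0 to 30.8 TPM (median 21.9). The groups overlapped for each of these genes, with log2 fold changes of -0.00 (SE 0.14), 0.00 (SE 0.20) and 0.03 (SE 0.29). Bub1b and Rfc3 were at -0.24 (SE 0.24) and 0.22 (SE 0.17), and the other 8 listed genes lay between -0.19 for Pole and 0.12 for Cdc6.

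**Figure D5:**
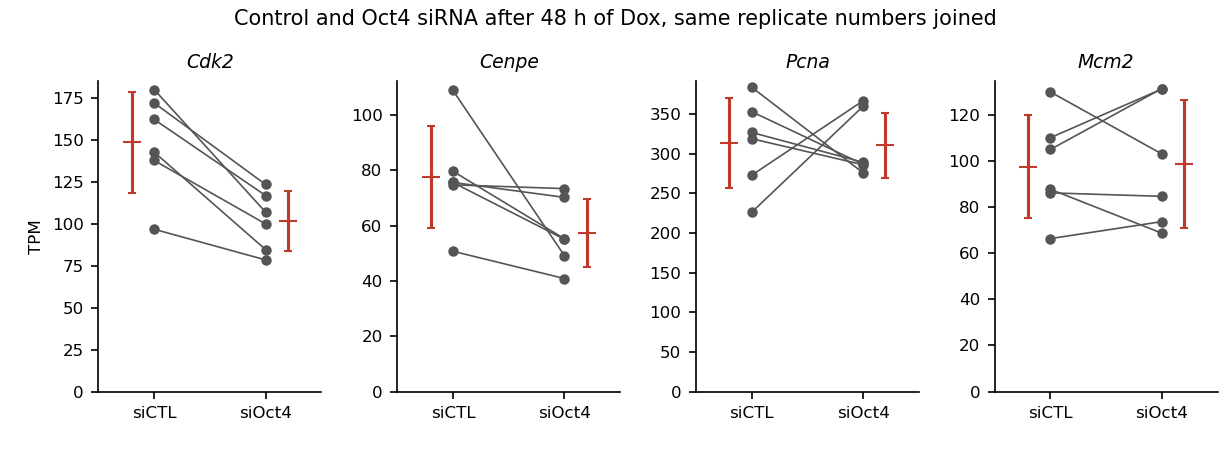
TPM of Cdk2, Cenpe, Pcna and Mcm2 in the 12 siRNA libraries (grey points, same replicate numbers joined), with the mean and SD of each group (red bars); axes start at 0. All 6 Cdk2 lines and all 6 Cenpe lines run down from siCTL to siOct4, whereas the Pcna and Mcm2 lines cross.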

How the data were processed

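Poly(A) RNA of 35 libraries was sequenced from strand-specific libraries, and the deposited values are TPM made by the authors with cutadapt, STAR and RSEM on mm10 (versions are not given in the sources used here). TPM were used as deposited, from a table of 23 libraries and one of 12 siRNA libraries that lists only genes the authors called GATA6-responsive; its columns of the authors' classes and means were not used. For 60 symbols found on several rows, only the most abundant row was used. Genes that averaged 1 TPM or more in a group were tested with limma 3.58.1 (R 4.3.3; empirical Bayes with trend and robust) on log2(TPM + 1), over 15057 and 6264 genes, with Benjamini-Hochberg adjustment over all of them. All 23 libraries shared one fit. Genes were called at an adjusted p under 0.05 and a log2 fold change above 1 (0.5 for siRNA). Columns of TPM summed to between 999764 and 999881 for the induction libraries. For the siRNA libraries, where only part of the genes is listed, they summed to between 274527 and 355895. Depth is unknown.

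The 46 genes and the other lists were chosen with earlier results of these data known. Values in every library were given for the 2 genes of each role with the largest and the 1 with the smallest change at 168 h, for genes that passed against their role's median, for genes called in the siRNA series, and for the highest and lowest mean at 0 h; other genes were described by their change. The study calls its replicates and its knockdowns independent, and names 1 clone for the knockdowns. It selected 2 clones of inducible cells, and its methods do not say which gave the induction libraries. Replicate numbers did not pair the induction libraries (mean correlation of deviations 0.03, 16 of 77 pairs above 0.1) but did pair the siRNA libraries (mean 0.33, 6 of 6 pairs above 0.1, lowest 0.24). Alternatives were median-of-ratios rescaling, a pseudocount of 0.1, a filter at 5 TPM or none, an adjusted p under 0.01, no fold minimum, the replicate block, leaving out each replicate, and averaging consecutive siRNA libraries, to which the same with the block was added after seeing the data. The fit was tested on simulated data. Promoters and their motifs came from RefSeq (GRCm38.p6), searched with Python 3.11.15.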

Additional observations from a re-analysis of the deposited data

Results flagged for a closer look

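Single libraries stood apart from the other 5 of their group in the siCTL samples for 3 genes, on the log2(TPM + 1) scale. Cdc6 was highest in siCTL replicate 4 at 6.55, with the others between 5.68 and 5.81. Rfc3 was lowest in the same library at 4.08, with the others between 4.73 and 4.89. Pola1 was lowest in siCTL replicate 3 at 3.12, with the others between 4.54 and 4.96. Of 30 sets of 6 libraries examined, chance would mark about 1.5. The smaller groups of the induction series were not among these sets, and their replicate 3 at 72 h is described above with Rrm2.

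Mcm4 stood apart because, as deposited, it went below its 0 h level after 168 h of Dox (log2 fold change -0.29) and above it in XEN cells (0.25). The rise in XEN cells was the smallest of 3 that passed among licensing genes, of which 2 remained under rescaling. The difference between XEN cells and 168 h was 0.54 (limma, adjusted p = 7.41e-06), with both XEN libraries above all 3 libraries of 168 h.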

How the results depend on the processing

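Of 252 values of the 28 genes described by library at 168 h under the alternatives, 245 kept direction and call, and the same number did in XEN cells against 0 h. Without a fold minimum the counts of genes called went from 0, 0, 2, 8, 11 and 12 at 16, 24, 48, 72, 96 and 168 h to 1, 16, 34, 33, 35 and 38, in XEN cells from 11 to 38 against 0 h and from 1 to 23 against 168 h, and from 0 to 18 and 6 to 36 at 168 h against 96 and 16 h. Rescaling gave 13 for 168 h against 16 h. Leaving out a replicate gave 10 to 12 at 168 h and 0 to 1 for XEN cells against 168 h, with 0 without replicate 3.

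Rescaling moved the medians at 168 h to -0.87 (licensing), -1.31 (fork), -0.70 (nucleotide), -0.42 (G1/S), -0.31 (mitotic entry) and -0.28 (segregation), and those in XEN cells to -0.41, -1.11, -0.59 (nucleotide), -0.48 (mitotic entry) and -0.31 (segregation). With a pseudocount of 0.1 the XEN medians of licensing and mitotic entry were -0.31 and -0.39. Rescaling turned Cdc25a, Ccna2 and Cdk1 at 168 h to -0.116, -0.06 and -0.0839. Ttk in XEN cells, 0.00 as reported, was -0.0869 rescaled, -0.0221 with the replicate block and -0.0729 (without replicate 3) to 0.0491 with 1 replicate left out. The induction libraries were not paired by number, and a replicate block changed no other direction at 168 h or in XEN cells and moved the count of calls in XEN cells against 0 h from 11 to 10 (Pcna, -0.99).

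In the paired siRNA series the replicate block gave 1 call, as did leaving out replicate 3 (Cdk2 in both, -0.53 and -0.58), and leaving out a replicate gave 0 to 1. Genes near 0 changed sign. Under rescaling Mcm3 was 0.138, Mcm6 0.075, Mcm10 0.0783, Pcna 0.147 and E2f1 0.00344, and with consecutive libraries averaged Mcm2 was -0.0145 and Pola1 -0.0112, with or without the block. Averaging with the block, added after the data were seen, left Cdk2 uncalled. Leaving out 1 replicate gave -0.061 to 0.073 for Mcm2, -0.032 to 0.021 for Mcm3, -0.048 to 0.089 for Gins1, -0.14 to 0.092 for Pcna, -0.16 to 0.12 for Pola1 and -0.073 to 0.11 for E2f2. Where no cause is stated it was not tested. Depth cannot be read from TPM, so low genes such as E2f2 have only the spread of libraries as their error.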
